A study of Mus musculus with 2 samples.

Results

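The cells described here carried RNA of Prox1 at a modest level together with venous endothelial genes. They were chosen by measured values: Prox1 above 0 and below 4 on the deposited natural log scale, Pdgfra not detected, at least 2 of the 3 venous genes Vwf, Selp and Emcn detected, and fewer than 2 of the capillary genes Rbp7, Cd300lg and Flt1 detected. Of 14300 cells, 439 met the rule. They made up 213 of 7308 adult cells (2.91%, 95% exact binomial interval 2.54 to 3.33) and 226 of 6992 aged cells (3.23%, 2.83 to 3.67). They are called Prox1 venous-gated cells below.

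Single-cell RNA was measured by 3' droplet sequencing in cells sorted from lymphatics that drain to the submandibular lymph nodes in FVB/N mice of the Prox1-GFP genotype. Prox1-GFP is a reporter in which green fluorescent protein follows the regulatory region of Prox1, so the controls and the aged animals carry the same transgene. The adult library pooled 6 mice of 12 weeks and the aged library pooled 6 mice of 93 weeks, with no other treatment named in the labels, and the gate of the sort is not given in the sources used here. With 1 library per age there is no replicate check, so no test was made, and every interval covers counting error only.

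Prox1 is the transcription factor that sets and keeps lymphatic endothelial identity, and during development lymphatic endothelium arises from veins that switch it on. Venules are the vessels where leukocytes leave the blood. Their endothelium stores von Willebrand factor and P-selectin in Weibel-Palade bodies and displays adhesion molecules and chemokine-binding receptors on its surface. Prox1 is also kept in some blood endothelium, at venous valves for example.

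The libraries held 90875406 UMIs (adult) and 83509101 UMIs (aged, after cells under adult barcodes were left out). A UMI is a molecular tag that counts 1 captured RNA molecule. Of the adult cell barcodes, 6977 (95.5%) recurred in the aged table. Such cells were counted once, as adult, and 206 of the 213 adult Prox1 venous-gated cells had such a copy, with a median of 4025 UMIs against 7958 in the adult table. The aged table lacks gene symbols, and the symbols of the adult table were taken over row by row. Log sums over the shared cells correlated at 0.999 when the rows were matched in this way (15091 genes) and at -0.033 when shifted by 1 row. Most sequenced cells were fibroblast-like by Pdgfra: 5618 adult and 5670 aged cells.

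The Prox1 venous-gated cells held 1687926 UMIs in the adult library, with a median of 7853 per cell (range 2676 to 18400), and 1492937 in the aged library, with a median of 6430 (1724 to 15862). The same gate without Prox1 took 81 adult and 33 aged cells, with medians of 7704 and 6353 UMIs. Cells with Prox1 at 4 or more and no Pdgfra numbered 261 and 95, with medians of 6422 and 5624 UMIs. The median depth of the Prox1 venous-gated cells was therefore close to that of venous-gated cells without Prox1 and above that of the Prox1-rich cells. No doublet caller was run, and the part of doublets was not tested.

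The gate itself fixed the levels of its own genes, which are given as a description. Prox1 had 2765 UMIs in the adult and 2499 in the aged cells, or 1638 and 1674 CPM. CPM is the gene's UMIs over all UMIs of the cell set and library, scaled to 1000000, and is not corrected for gene length. The median cell held 8 Prox1 UMIs in each library, 23 adult and 24 aged cells held only 1, and 136 and 160 cells held 5 or more. Vwf stood at 2744 and 2484 CPM, Emcn (endomucin, a sialomucin of venous and capillary endothelium) at 1320 and 1725, and Selp (P-selectin) at 1768 and 1002. Flt1, the VEGF receptor of blood endothelium and the capillary gene a cell was allowed to carry, had a UMI in 97.2% of adult and 95.6% of aged cells, whereas Cd300lg had none. All 3 venous genes were detected in 147 adult cells (69.0%, interval 62.3 to 75.2) and 96 aged cells (42.5%, 35.9 to 49.2). The remainder of cells passed mainly on Vwf and Emcn without Selp, 63 adult and 128 aged.

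**Figure D1:**
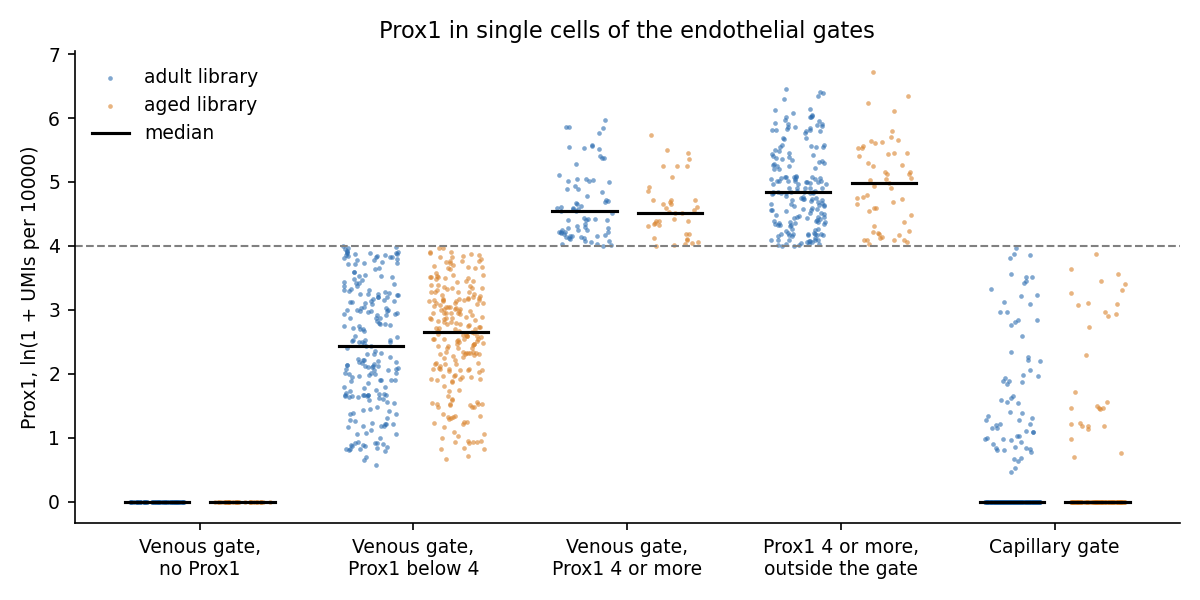
Prox1 value (natural log of 1 plus UMIs per 10000) of each cell in 5 endothelial gates, with 1 point per cell, a black bar at the median and a dashed line at the upper limit of 4. The venous-gated cells with Prox1 below 4 fill the range up to the limit, with medians of 2.43 (adult) and 2.65 (aged), and most capillary-gated cells lie at 0.

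Among all venous-gated cells with Prox1 below 4, 213 of 294 in the adult library (72.4%, interval 67.0 to 77.5) and 226 of 259 in the aged library (87.3%, 82.6 to 91.1) had a Prox1 UMI. The share among capillary-gated cells was 28.1% and 27.0%, and that among Pdgfra-detected cells, which should lack Prox1, was 8.45% and 5.86%. Venous- and capillary-gated cells with at least 5028 UMIs were also thinned to 5028 UMIs and gated again. The venous shares were then 70.1% (185 of 264 adult cells) and 83.7% (164 of 196 aged cells). In 1000 Pdgfra-detected cells per library thinned to that depth, the shares were 3.4% and 3.0%. Because the rule used Prox1 and the venous genes, these shares, and their differences between cell sets and between libraries, are a description.

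The rule did not use the reporter transcript, but the reporter follows the regulatory region of Prox1, which the rule did use. eGFP stood at 2132 CPM in the adult and 3204 in the aged Prox1 venous-gated cells, and 91.1% and 93.8% of cells held a UMI of it. Venous-gated cells without Prox1 had 31.3 and 113 CPM, Pdgfra-detected cells 13.8 and 13.1, and Prox1-rich cells 16270 and 16448. The Prox1 venous-gated cells lay between the venous cells without Prox1 and the Prox1-rich cells in the reporter. Their place in Prox1 itself was set by the rule, so their place in its reporter is a description and no independent check. Within them eGFP followed Prox1. From the lowest to the highest tercile of cells by Prox1 value (limits 1.91 and 2.99 adult, 2.29 and 3.02 aged), eGFP went from 468 through 1584 to 4231 CPM in the adult library and from 1299 through 2670 to 5483 in the aged library.

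Selp, which the rule used, is given as a description only, at 2560, 1866 and 927 CPM over the adult terciles and 1585, 742 and 712 over the aged terciles. Olr1, a scavenger receptor for oxidised lipoprotein, stood at 297, 475 and 604 in the adult and at 553, 705 and 886 in the aged terciles. Cytl1, a secreted cytokine-like protein, was lower in the highest than in the lowest tercile. It went from 2142 to 1595 in the adult and from 1929 to 1665 in the aged library. The terciles had similar medians of depth, 7731, 8136 and 7961 UMIs in the adult and 6375, 6428 and 6633 in the aged library.

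The limit of 4 fell on a continuous range of values. Just inside it, with Prox1 from 3.5 to 4, lay 36 adult and 31 aged cells. Just outside it, from 4 to 4.5 with the same venous gate, lay 36 and 18. eGFP was 4918 and 6940 CPM inside and 8339 and 9055 outside, and Selp was 593 and 413 inside and 312 and 33.1 outside. Cytl1 was 1316 and 1595 inside against 1084 and 1333 outside. Mmrn1 (multimerin 1, a lymphatic endothelial gene) was 30.0 and 23.5 inside against 81.5 and 33.1 outside.

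**Figure D2:**
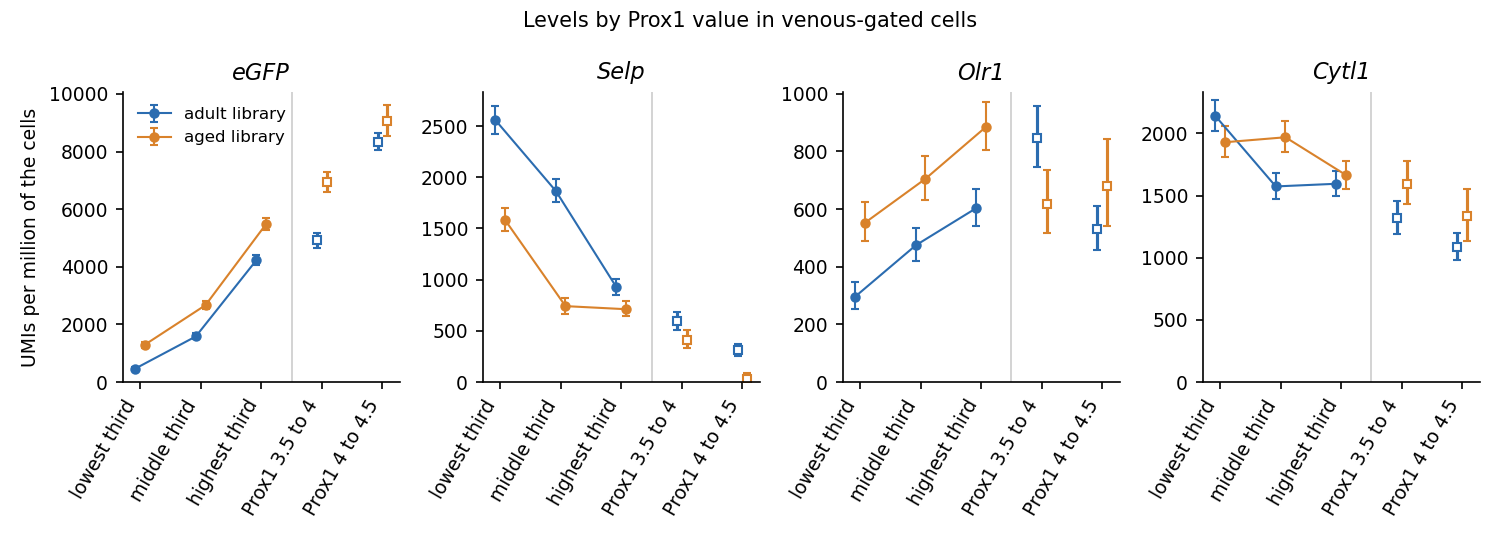
Levels of eGFP, Selp, Olr1 and Cytl1 (CPM, axes from 0) in terciles of the Prox1 venous-gated cells by Prox1 value (filled circles) and in the cells just below and just above the limit of 4 (open squares; those below are also in the highest tercile). Bars are 95% exact Poisson intervals; eGFP is higher with each tercile of Prox1 in both libraries, from 468 to 4231 and from 1299 to 5483 CPM, and Selp, which the rule used, is shown as a description.

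Cytl1, Olr1 and Ackr1, which the rule did not use, were all present. Cytl1 was at 1764 CPM (interval 1701 to 1828) in the adult and 1851 (1782 to 1921) in the aged Prox1 venous-gated cells, with a UMI in 97.7% and 94.7% of cells. Olr1 was at 462 and 719, in 41.8% and 47.3% of cells. Ackr1, the atypical chemokine receptor of venules, was at 432 and 392, in 76.5% and 73.5% of cells. Ackr1 also had a UMI in 14.3% and 16% of Pdgfra-detected cells at 5028 UMIs, against 68.1% and 69.9% of Prox1 venous-gated cells at that depth.

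Of the 16 listed pan-endothelial genes, 15 had a UMI in at least 10% of cells in each library. Pecam1 (an endothelial junction adhesion molecule) was in 99.1% and 100% of cells and Cdh5 (VE-cadherin) in 95.3% and 96.9%. Cldn5 (an endothelial claudin) was in only 3.8% of adult and 3.1% of aged cells. Nr2f2, the venous fate transcription factor, stood at 540 and 385 CPM, and Plvap, which forms the diaphragms of venular and fenestrated endothelium, at 1496 and 1602. The lymphatic genes were low. Flt4, the receptor for VEGF-C, stood at 29.0 and 18.8, Lyve1, the hyaluronan receptor of lymphatic capillaries, at 21.3 and 26.1, and Ccl21a, the lymphatic chemokine for dendritic cells, at 1.78 and 0. Reln, made by collecting lymphatics, had no UMI in either library. None of Flt4, Lyve1, Mmrn1 and Reln was detected in 163 adult cells (76.5%) and 179 aged cells (79.2%), and 2 or more were detected in 5 and 5. Other genes of the lymphatic list were present: Nrp2, a co-receptor for VEGF-C, at 339 and 384 CPM, Nts at 344 and 421, and Fgl2, a fibrinogen-like protein, at 267 and 275. The 16 listed genes summed to 1074 and 1217 CPM, against 541 and 666 in venous-gated cells without Prox1 and 7324 and 5092 in Prox1-rich cells. At 5028 UMIs per cell, Flt4 was in 12.97% and 6.02% of the Prox1 venous-gated cells and in 0.4% and 0.2% of Pdgfra-detected cells. Aplnr, a further venous marker, stood at 0 CPM in the adult and 2.01 in the aged cells. The venous markers thus matched the label in part, and the lymphatic genes were in part present and in part at or near 0.

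Markers of other cell types were checked in the same sums. The 5 fibroblast markers summed to 453 and 381 CPM against 20320 and 23750 in Pdgfra-detected cells, most of it Dcn (decorin), at 421 and 295. Venous-gated cells without Prox1 had less, with a fibroblast sum of 195 and 123 and Dcn at 167 and 58.8. The 6 immune markers summed to 10.7 and 0.67, with Ptprc (CD45) at 0 in both libraries, and the 4 pericyte markers to 7.11 and 0.67. The 4 smooth muscle markers summed to 118 CPM in the adult and 12.7 in the aged cells, with Acta2 (smooth muscle actin) at 74.1 and 8.04. The 3 epithelial markers stood at 1.18 and 0.67, the 3 Schwann markers at 1.18 and 1.34 and the 3 red cell markers at 4.74 and 10.7. In venous-gated cells without Prox1 the sums were 6.26 and 0 for smooth muscle, 15.6 and 0 for pericyte and 9.38 and 0 for immune markers. They were 31.3 and 4.90 for epithelial, 3.13 and 0 for Schwann and 12.5 and 9.80 for red cell markers. The source of such RNA was not tested. Of the high endothelial venule genes, Glycam1 had 0 and 2 UMIs, and Chst4, Fut7 and Madcam1 had none.

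**Figure D3:**
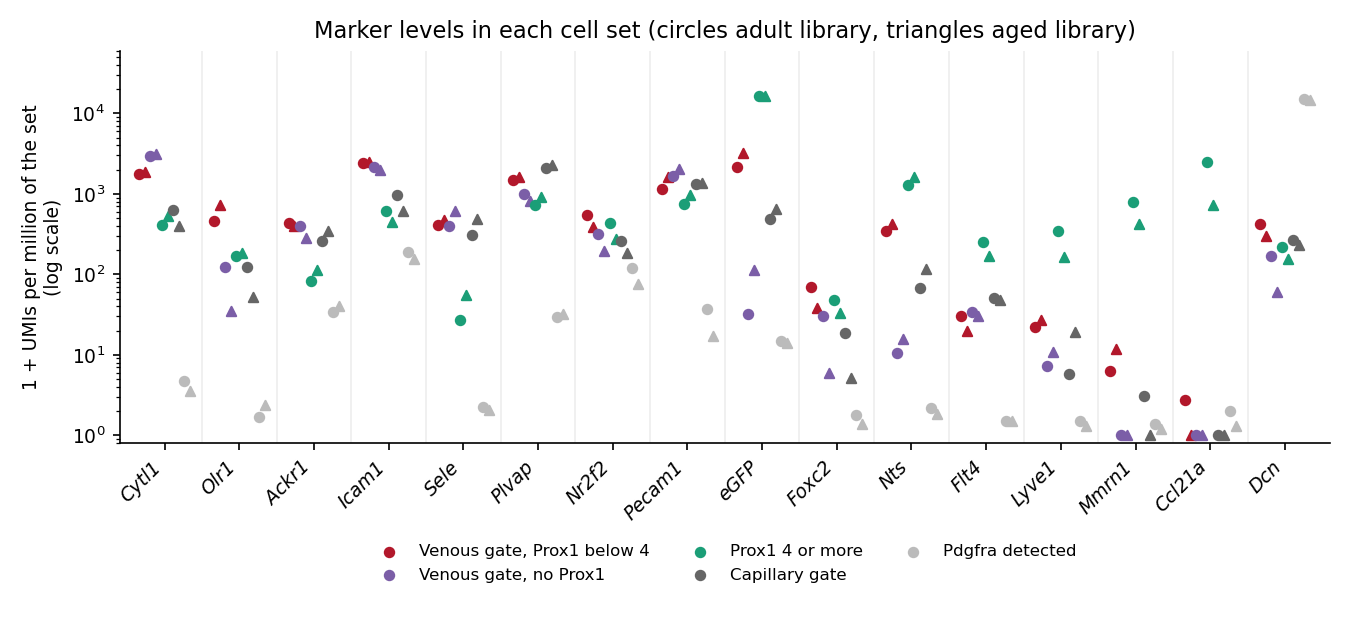
Level of 16 marker genes (1 plus CPM, log axis) in 5 cell sets, circles for the adult and triangles for the aged library. The Prox1 venous-gated cells (red) sit with the venous-gated cells without Prox1 for Cytl1, Ackr1, Icam1 and Sele, between them and the Prox1-rich cells for eGFP, and far below the Prox1-rich cells for Mmrn1 and Ccl21a.

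Against venous-gated cells without Prox1, 54 of 4765 measured genes were at least 2-fold higher in both libraries (1.13%) and 72 were at least 2-fold lower in both (1.51%). A gene counted as measured where at least 10% of the cells of either compared set had a UMI and both sets together held at least 50 UMIs. This had to hold in both libraries. Ratios were taken of CPM plus 1, and the genes of the rule were left out of these counts. Beside eGFP, the higher genes were led by Clec7a (Dectin-1, a receptor for fungal glucans), Nts (neurotensin), Foxp2, Igsf3, Dusp2 and Igfbp5. Clec7a stood at 43.8 and 36.8 CPM and had no UMI in the 81 and 33 cells without Prox1. Nts stood at 344 and 421 CPM against 9.38 and 14.7, but only 17.4% and 18.1% of the Prox1 venous-gated cells held a UMI of it. Foxp2, a forkhead transcription factor, stood at 85.3 and 38.2 against 4.69 and 0, and Igfbp5, an IGF-binding protein, at 356 and 275 against 50.04 and 44.1.

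Nrxn3 (a neurexin) and Comp (cartilage oligomeric matrix protein) completed the list with Olr1, which stood at 462 and 719 against 122 and 34.3. Foxc2, a transcription factor of lymphatic and venous valves, was at 68.7 CPM in adult and 37.5 in aged Prox1 venous-gated cells, against 29.7 and 4.90 without Prox1. Its level in Prox1-rich cells, 47.3 and 31.8, was no higher. Of 7 measured valve genes, 1 (Foxc2) was 2-fold higher in both libraries than in venous-gated cells without Prox1 and 1 (Fn1) was lower. The median log2 difference of the valve list was 0.15 in the adult and 0.09 in the aged library. Nts was the 1 lymphatic gene of the 4 measured that was 2-fold higher in both libraries. None of the 13 measured leukocyte adhesion and chemokine genes differed by 2-fold in both libraries. Of the 13 measured venous identity genes, a list that also holds the proposed markers Cytl1 and Olr1, only Olr1 did.

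The lower genes were led by Gja5, Hdac9, Ptprr, Ly6c1, Htra1, Col4a1, Bpgm, Fn1, Cldn5 and Atp2a3. Gja5 (connexin 40, an arterial gap junction protein) stood at 2.96 and 2.68 CPM against 167 and 225. Cldn5, the endothelial tight junction claudin, stood at 97.2 and 84.4 against 956 and 1313. Of the 6 measured arterial genes, 3 were lower in both libraries: Gja5, Dll4 (a Notch ligand) and Bmx (a kinase). The venous gate without Prox1 thus held cells with arterial genes, and 26 adult and 13 aged cells of it had a UMI of Gja5 or Sema3g.

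Without those cells, 55 and 20 comparison cells remained, and 30 genes were higher and 29 lower in both libraries. The share over all measured genes is not given for these counts, so they cannot be set against those above. Clec7a, eGFP, Nts, Foxp2 and Olr1 stayed higher by 2-fold in both, at log2 1.22 and 3.47 for Olr1 and 5.51 and 3.92 for eGFP. Cldn5 then differed by 1.64 and -0.38, Htra1 by 0.58 and 0.13, Bpgm by 0.33 and -0.02, and Fn1 by 1.37 and -0.44. Col4a1, a basement membrane collagen, remained lower, at -2.45 and -4.78, as did Ly6c1 (a surface antigen of blood endothelium), at -1.65 and -2.82.

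Against the Prox1-rich cells, 148 of 5475 measured genes were at least 2-fold higher in both libraries (2.7%) and 147 were lower (2.68%). Genes of leukocyte recruitment stood out among the higher ones. Of 14 measured genes of that list, 8 were higher in both libraries and 2 lower, with a median log2 difference of 1.67 in the adult and 1.60 in the aged library, where the median over all measured genes of both libraries was -0.04. Sele (E-selectin, which captures rolling leukocytes) stood at 409 and 477 CPM against 26.4 and 53.6. Icam1, a ligand of leukocyte integrins, stood at 2449 and 2485 against 617 and 440, and Vcam1, another such ligand, at 937 and 1163 against 223 and 300.

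Csf3 (G-CSF, the growth factor of neutrophils) was at 165 and 171 CPM against 11.01 and 11.7. Its UMIs came from 14.6% and 10.6% of the Prox1 venous-gated cells. Cxcl1, a neutrophil chemokine, was at 309 and 283 against 121 and 48.6, and Ackr1 at 432 and 392 against 81.5 and 112. Jam2 and Cd34, which take part in leukocyte contact with the vessel wall, were the other higher members. Ccl2 and Ccl7, the monocyte chemokines, were the 2 lower ones, with Ccl2 at 10.1 and 20.1 against 54.5 and 50.2.

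Further genes leading the higher list were Enpp6, Klk8, Prg4, Kcnh1, Tcf15, Bnc2 and Nrp1. Klk8, a secreted serine protease, stood at 151 and 159 CPM against 24.8 and 18.4. Prg4 (lubricin, a surface glycoprotein) stood at 132 and 116 against 23.7 and 18.4. Kcnh1 encodes a voltage-gated potassium channel. Nrp1 is a co-receptor for VEGF and semaphorins that marks blood more than lymphatic endothelium. It stood at 155 and 151 against 33.0 and 30.1.

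Of the 13 measured lymphatic identity genes, 11 were lower in both libraries and none was higher. Mmrn1 stood at 5.33 and 10.7 against 780 and 425, Flt4 at 29.0 and 18.8 against 253 and 166, and Ccl21a at 1.78 and 0 against 2461 and 718. Reln was at 0 against 360 and 127. Ston2, Pard6g, Thy1, Hgf, Dtx1, Sema3a and Sema3d were the other leading lower genes. Of these, Thy1 is a surface glycoprotein found on lymphatic endothelium, Hgf a growth factor, and Sema3a and Sema3d secreted semaphorins.

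Cldn11, a claudin of lymphatic valves, was also lower, at 2.96 and 2.68 against 69.4 and 152. It was 1 of 4 of the 9 measured valve genes that were lower, with Itga9, Gja1 and Fn1. Of the venous identity genes, 6 of 13 were higher in both libraries and none was lower. The 6 include Cytl1 and Olr1, proposed markers of the Prox1 venous-gated cells themselves. When the comparison was restricted to Prox1-rich cells outside the venous gate (185 and 55 cells), 299 genes were higher. The share over all measured genes is not given for this count, so it cannot be set against the counts for all Prox1-rich cells. Prox1-rich cells inside the venous gate (76 and 40) had intermediate values, with Mmrn1 at 118 and 183, Icam1 at 992 and 716 and Cytl1 at 925 and 980 CPM.

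Capillary-gated cells were those without Pdgfra, with Prox1 below 4 and with at least 2 of Rbp7, Cd300lg and Flt1 detected. Against these 256 adult and 115 aged cells, 216 of 5722 measured genes were at least 2-fold higher in both libraries (3.77%) and 191 lower (3.34%). Higher genes were led by Ncam1, Clec7a, Agr2, Unc5c, Sema4d, Pknox2, Kcnt2, eGFP, Esr1 and Flrt3. Ncam1, a neural cell adhesion molecule, stood at 125 and 56.3 CPM against 17.3 and 4.2. Unc5c, a netrin receptor, stood at 171 and 205 against 35.6 and 35.0, and Esr1, the oestrogen receptor, at 79.4 and 65.6 against 17.8 and 11.2.

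Lower genes were led by Penk, Esm1, Thrsp, Rgs5, Btnl9, Ccdc85a, Sema7a, Cxcl12, Sox17 and Col4a2. Rgs5 is 1 of the 4 pericyte markers, which summed to 184 and 255 CPM in the capillary-gated cells against 7.11 and 0.67. The part of pericyte RNA in the capillary-gated cells was not tested. Cxcl12, a chemokine made by capillary and arterial endothelium, stood at 31.4 and 13.4 CPM against 1855 and 1966. Of 8 measured blood capillary genes, 5 were lower in both libraries, among them Gpihbp1, the anchor of lipoprotein lipase, at 12.4 and 7.37 against 270 and 208, and Cd36, the fatty acid transporter, at 71.7 and 67.0 against 806 and 633. Of 14 basement membrane genes, 5 were lower and 1 higher. Of 5 measured lymphatic identity genes, 3 were higher and none lower: Nts (344 and 421 against 67.5 and 115), Fgl2 (267 and 275 against 103 and 82.6) and Tbx1 (a transcription factor, 34.4 and 27.5 against 5.75 and 12.6). Of 14 venous genes, 5 were higher (Nr2f2, Cytl1, Olr1, Vcam1 and Bmp4) and 1 lower, Aplnr (the apelin receptor), at 0 and 2.01 against 115 and 89.6. Of the 5 higher genes, Cytl1 and Olr1 are proposed markers of the Prox1 venous-gated cells themselves. The anticoagulant receptor gene Procr was higher too, at 1164 and 1273 against 358 and 437.

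Between the ages, 6596 genes were measured within the Prox1 venous-gated cells. In the aged library 106 were at least 2-fold higher (1.61%) and 105 at least 2-fold lower (1.59%), together 3.2%, and the median log2 ratio of all of them was 0.07. With every aged barcode kept, which lets copies of adult cells into the aged group (435 aged cells), 29 of 6852 measured genes were higher and 30 lower. None of 13 measured venous identity genes differed by 2-fold, and their median log2 ratio was 0.07. Selp, which the rule used, was lower in the aged library, at 1768 and 1002 CPM, and passed 2-fold in 2 alternatives, at log2 -1.14 without cells that held Acta2, Myh11 or Col1a1 and -1.09 without the deepest cells. Its share of cells at 5028 UMIs was 69.7% and 41.6%. Pan-endothelial genes had a median of 0.21 over 15 genes and haemostasis genes one of 0.21 over 11 genes, again with none past 2-fold. Cytl1 differed by 0.07 (interval -0.01 to 0.14) and Ackr1 by -0.14 (-0.30 to 0.02).

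Class II antigen presentation genes were far lower in the aged library, with 6 of 6 measured genes past 2-fold and a median log2 ratio of -4.27. Cd74, the invariant chain that guides class II molecules, had 512 UMIs in the adult and 9 in the aged cells, or 303 and 6.03 CPM. It was detected in 71 of 213 adult and 3 of 226 aged cells. At 5028 UMIs per cell the shares were 32.4% and 1.2%, against 0.9% and 0% of Pdgfra-detected cells. H2-Aa, an alpha chain, went from 180 to 5 UMIs, and the beta chains H2-Ab1 and H2-Eb1 from 249 to 15 and from 142 to 7. H2-Ea had 217 adult UMIs and 1 aged UMI, for a log2 ratio of -6.28 (interval of the UMI ratio -12.9 to -5.09). H2-DMa, which helps load peptide, went from 43 to 7 UMIs, at -2.22.

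Other endothelial cells of the same libraries showed lower class II genes too: Cd74 stood at 345 and 1.67 CPM in Prox1-rich and at 85.8 and 8.40 in capillary-gated cells. Ptprc and the summed immune markers, given above, were at or near 0 in the Prox1 venous-gated cells of both libraries. Among the adult cells, Cd74 was detected in 47.6% of those without Selp and in 27.3% of those with it. Lower class II UMIs were seen in cells of both sexes, called from Xist and Y-linked transcripts (91 female and 85 male adult cells, 91 and 89 aged). Cd74 went from 313 to 2 UMIs in female cells and from 68 to 7 in male cells, and H2-Eb1 from 105 to 2 in female cells and from 11 to 5 in male cells (log2 -0.86, interval -2.81 to 0.71, in male cells).

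Of the 8 class II list genes, 4 had an entry in the RefSeq promoter table (GRCm38.p6). The upstream sequences of the alpha chain gene H2-Aa and the beta chain gene H2-Eb1 are shown because both genes were far lower in the aged library and class II promoters are known for a shared set of boxes. The result for the other listed genes with an entry is not given. The sequences are those of the reference build and were not read in the FVB/N mice. Each is the 250 bases before the start, 5' to 3' on the gene's strand: chr17:34287824-34288073 (minus strand) for H2-Aa and chr17:34305617-34305866 (plus strand) for H2-Eb1. Capitals mark GCAAC and the Y box letters CTGATTGG, searched on both strands, where they lie on 1 strand within 40 bases of each other.
H2-Aa: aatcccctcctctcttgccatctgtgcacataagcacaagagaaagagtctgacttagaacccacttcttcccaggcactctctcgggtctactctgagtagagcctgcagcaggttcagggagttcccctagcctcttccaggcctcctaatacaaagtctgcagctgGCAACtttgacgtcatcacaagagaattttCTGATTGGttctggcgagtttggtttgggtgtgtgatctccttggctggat
H2-Eb1: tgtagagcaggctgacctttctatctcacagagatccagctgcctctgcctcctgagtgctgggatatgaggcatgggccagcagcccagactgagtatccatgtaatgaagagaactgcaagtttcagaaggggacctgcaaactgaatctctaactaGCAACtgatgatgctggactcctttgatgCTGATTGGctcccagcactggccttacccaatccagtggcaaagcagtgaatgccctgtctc
The motifs are 25 and 24 bases apart. Of 32851 promoters in the table, 29.9% hold GCAAC, 3.83% hold CTGATTGG, and 45 (0.137%) hold the pair on 1 strand within that distance. These matches describe letters only.

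Class I presentation genes were lower as well, with 10 of 17 past 2-fold, none higher and a median log2 ratio of -1.15. B2m, the light chain of class I molecules, stood at 1842 and 555 CPM (log2 -1.73, interval -1.84 to -1.62), and H2-K1, a heavy chain, at 1861 and 729 (-1.35). The immunoproteasome subunit gene Psmb9 went from 142 to 36.8 (-1.92) and the peptide transporter gene Tap1 from 30.8 to 6.03 (-2.18). Nlrc5, the activator of class I genes, had 66 UMIs in the adult and 12 in the aged cells (-2.15). H2-K1, H2-K2, H2-Q4, H2-Q6 and H2-Q7 are near-identical copies in part, so the split of UMIs among them is uncertain. The same list had medians of -1.15 in Prox1-rich, -0.74 in capillary-gated and -0.72 in Pdgfra-detected cells.

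Of 7 measured interferon-induced GTPase genes, which act against intracellular microbes, 3 were past 2-fold lower (Iigp1 at -2.10, Igtp at -1.88 and Gbp4 at -1.06) and none was higher, with a median of -0.95. The wider interferon response list had none of 9 past 2-fold and a median of -0.30.

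Immediate early genes, which respond within minutes to stimuli and to tissue dissociation, were lower in 7 of 15 cases, with a median of -0.88. Fos stood at 3245 and 1123 CPM (-1.53), Egr1 at 1434 and 496 (-1.53) and Nr4a1 at 1055 and 394 (-1.42). The list had 10 of 14 genes past 2-fold lower and a median of -1.11 in Prox1-rich cells, but none of 15 and medians of -0.19 and -0.16 in capillary-gated and Pdgfra-detected cells. The handling of the 2 libraries cannot be told apart from age. Klf2, a flow-responsive transcription factor, stood at 1437 and 815 CPM (-0.82).

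**Figure D4:**
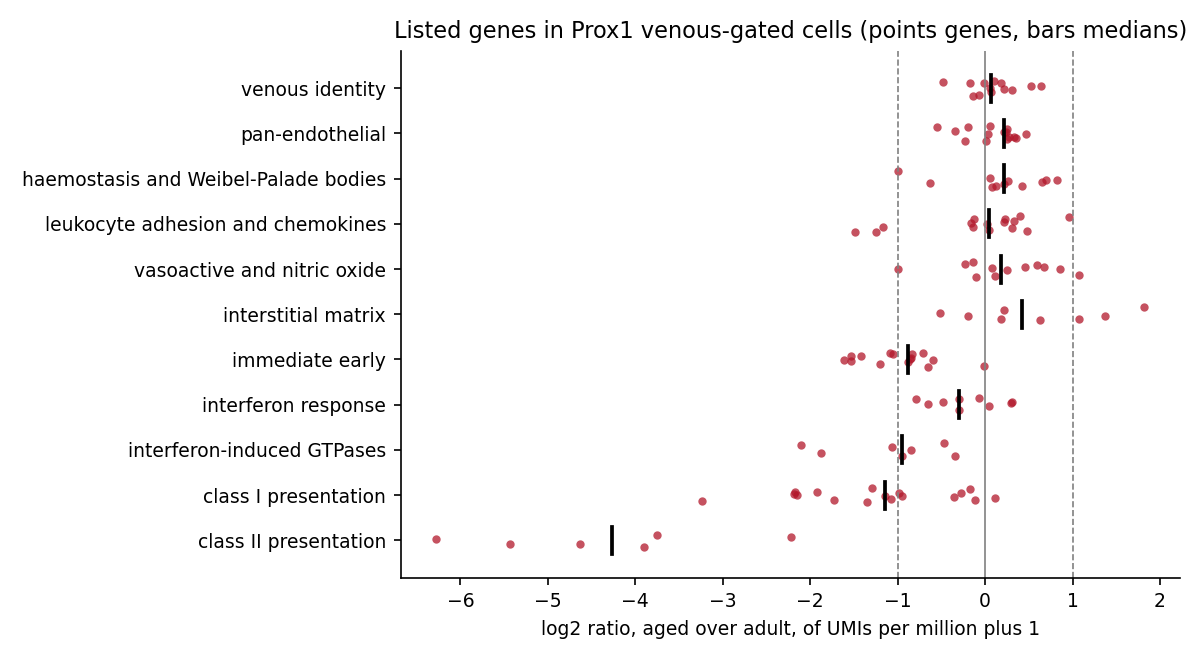
Log2 ratio, aged over adult, of each measured gene of 11 lists in the Prox1 venous-gated cells (points), with the list median as a bar and 2-fold as dashed lines. The class II genes lie from -6.28 to -2.22 and the class I median at -1.15, while the venous identity genes all lie inside 2-fold.

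F5, coagulation factor V, was among the 12 genes with the lowest ratio. It had 382 UMIs in 22.1% of adult cells and 9 UMIs in 3.5% of aged cells, or 226 and 6.03 CPM (log2 -5.02, interval -6.37 to -4.29). At 5028 UMIs its shares were 20.5% and 1.81%, against 0.4% and 0.9% of Pdgfra-detected cells. The ratio was -4.88 in female and -5.07 in male cells. F5 stood at 97.3 and 8.40 CPM in capillary-gated cells and at only 9.36 and 0 in Prox1-rich cells.

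The other lowest genes were H2-Q6, Trim69 (-2.82), H2-K2, C4b (-2.37), Cystm1 (-2.26) and Cyp26b1 (-2.24). Cyp26b1 degrades retinoic acid and C4b is a complement component. C4b was at 28.4 and 4.69 CPM here and at 618 and 300 in Pdgfra-detected cells, and its part from fibroblast RNA was not tested.

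Of the 15 measured genes of the leukocyte list, 3 chemokine or cytokine genes were past 2-fold lower: Cx3cl1 (fractalkine, 43.2 and 14.7 CPM), Cxcl12 (31.4 and 13.4) and Il6 (87.1 and 36.2). The adhesion genes of the same list stayed inside 2-fold, with Icam1 at 0.02, Vcam1 at 0.31 and Sele at 0.22. Edn1, the vasoconstrictor endothelin 1, stood at 450.3 and 225 (log2 -0.997, interval -1.19 to -0.81), just inside 2-fold.

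The genes with the highest ratios were Dcpp1, Dcpp2, Nav2, Zbtb16, Pthlh, Vav3, Frmd5, Lhfp, Sparc, Col3a1, Ntn4 and Trpv4. Dcpp1 and Dcpp2, near-identical secreted proteins of salivary gland, had 0 UMIs in the adult and 145 and 90 in the aged cells. No fold is given against an adult level of 0. Both genes were also at 0 in adult and present in aged Prox1-rich, capillary-gated and Pdgfra-detected cells, at 599 and 439 CPM in the last, and the part of free RNA was not tested. The aged-table copies of adult cells of this kind held 1 and 2 UMIs of them.

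Nav2, a cytoskeletal guidance protein, stood at 26.7 and 147 CPM (log2 2.42, interval 1.999 to 2.963), with a UMI in 13.1% and 31.0% of cells. Zbtb16 (PLZF), a zinc finger repressor, stood at 12.4 and 71.0 (2.42), and was also higher in Pdgfra-detected cells, by 1.55. Pthlh, the parathyroid hormone-related peptide, stood at 37.9 and 150.04 (1.96). Its ratio was 0.83 in female and 3.47 in male cells.

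Trpv4, a stretch-sensitive calcium channel, stood at 8.29 and 31.5 (1.81), at 0.61 in female and 4.41 in male cells. Vav3 had 2.23 in female and 0.57 in male cells. Such splits rest on few UMIs, 14 and 47 in all for Trpv4.

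Matrix genes were among the higher ones. Sparc, a matrix-binding glycoprotein, stood at 115 and 421 CPM (1.87, interval 1.64 to 2.11), and Col3a1, a fibrillar collagen, at 15.4 and 56.9 (1.82). Both were also higher in Pdgfra-detected cells, from 1973 to 5558 and from 1940 to 4670, and the part of fibroblast RNA was not tested. Dcn, the most abundant fibroblast marker here, stood at 421 and 295 CPM in the Prox1 venous-gated cells. Of 8 measured interstitial matrix genes, 3 were past 2-fold higher: Col3a1, Col1a2 (1.37) and Gsn (1.07).

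Ntn4 (netrin 4, a basement membrane component) stood at 30.2 and 109 (1.82), while in capillary-gated cells it stood at 103 and 49.0. Among other listed genes, Cd55, which protects cells from complement, was higher (70.5 and 182, log2 1.35), as were Gja1 (connexin 43, 1.22), Ccn2 (a matricellular growth factor, 1.15) and Ptgis (prostacyclin synthase, 1.07). Nos3, the endothelial nitric oxide synthase, stood at 285 and 453 (0.67), and Ackr3, a scavenging receptor for Cxcl12, at 399 and 776 (0.96). Foxc2 stood at 68.7 and 37.5 (-0.86), and 25.4% and 15.7% of cells held a UMI of it at 5028 UMIs.

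Several other lists held no gene past 2-fold between the ages, where the share over all measured genes was 3.2% in either direction. None of 16 measured respiratory chain genes, 10 cytosolic heat shock genes, 9 Notch genes and 8 angiopoietin and VEGF signalling genes was past 2-fold, with medians of 0.11, 0.15, 0.00 and 0.13. None of 6 lymphatic identity and 5 arterial genes was past 2-fold either. Among 9 lipid handling genes, 1 was higher, Dgat1 (a triglyceride-synthesising enzyme, 1.03). Among 7 cell-cycle arrest and stress genes, 1 was lower, Gadd45g (a growth arrest gene, -1.43). Of 11 complement and acute phase genes, C4b, Serpina3n (a serine protease inhibitor, -1.41) and Socs3 (a brake on cytokine signalling, -1.17) were lower and Cd55 was higher.

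**Figure D5:**
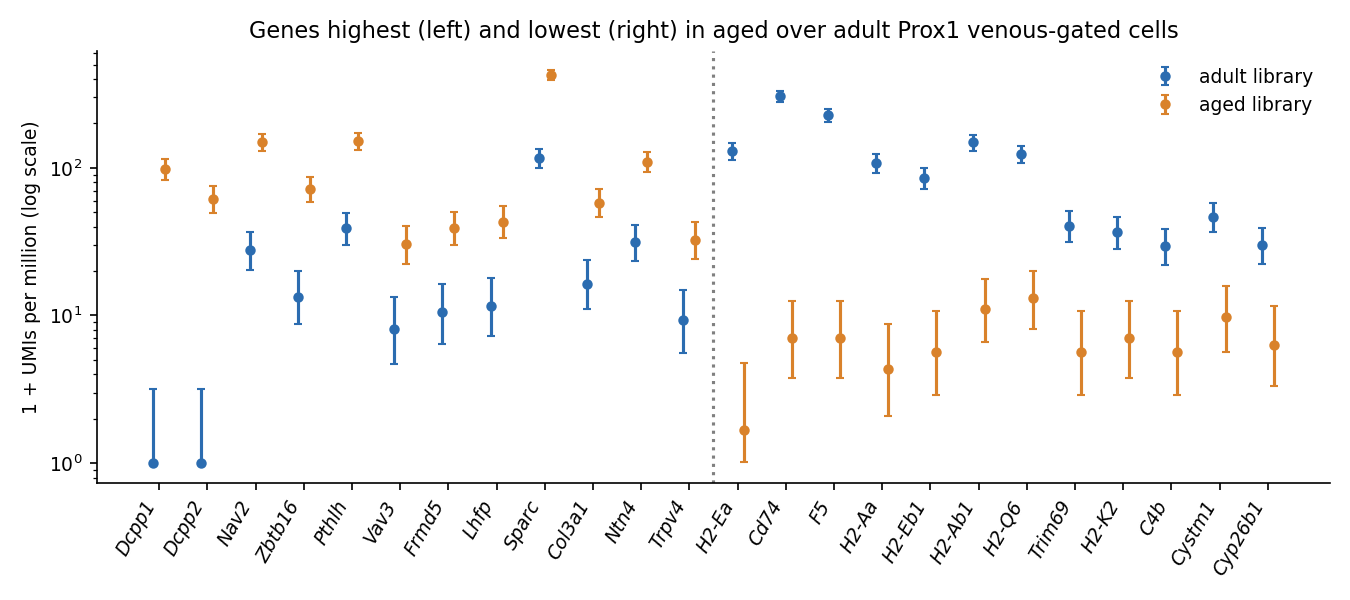
Level (1 plus CPM, log axis) of the 24 genes named for age, 12 at each end of the aged over adult ratio, in the Prox1 venous-gated cells, with 95% exact Poisson intervals that cover counting error only. Dcpp1 and Dcpp2 have 0 adult UMIs, and the class II genes and F5 have 1 to 15 aged UMIs against 142 or more in the adult library.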

How the data were processed

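Cells of 2 libraries were read from the deposited tables of natural log values, made by the authors from UMIs scaled to 10000 per cell, as the values show. Seurat 5.0.3 is named in the submitters' processing notes, and GRCm39 and mm10 are named there as genome builds with no role given. For the aligner, the cell filters and any doublet removal, the sources used here give no statement. UMIs were recovered by undoing the log and dividing by the smallest value of each cell. All values (100%) came out whole within 0.01. The aged table carries no gene symbols, so rows were matched by position, and cells with an adult barcode were left out of the aged group.

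UMIs were summed per cell set and library and expressed as CPM, and log2 ratios were taken after adding 1 CPM. A gene was measured if at least 10% of the cells of either compared set had a UMI and both sets together held at least 50 UMIs. For comparisons between cell sets this had to hold in both libraries. Genes were counted as different at 2-fold. Intervals (95%) are exact Poisson for levels, Clopper-Pearson for shares and conditional binomial for ratios, and cover counting error only. Shares were also computed after thinning to 5028 UMIs, which left out 28 adult and 60 aged Prox1 venous-gated cells and used 1000 Pdgfra-detected cells per library. Named genes were the 12 highest and 12 lowest for age and the 10 highest and 10 lowest for each set comparison, ranked by the smaller absolute log2 ratio of the 2 libraries. Genes of the rule, unnamed gene models, Xist, Tsix and Y-linked genes were left out of the ranking, and listed genes could also be named. One gene that the ranking named is not reported here. The cells and the gene lists were chosen with earlier results of these data known. Procedures were tested on simulated data. Alternatives changed the added CPM, the gene filter, the gate, the weighting of cells, the depth, the sex of cells, the barcode rule and the comparison cells. Python 3.11.15, NumPy 2.4.6, SciPy 1.17.1 and matplotlib 3.10.9 were used.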

Additional observations from a re-analysis of the deposited data

Results flagged for a closer look

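In 2 of the 24 genes named for age, the aged over adult ratio was past 2-fold in the Prox1 venous-gated cells and past 2-fold in the opposite direction in capillary-gated cells of the same libraries. Frmd5, a FERM domain protein, had a log2 ratio of 1.90 in the Prox1 venous-gated cells (16 and 57 UMIs) and -2.09 in capillary-gated cells. Ntn4 had 1.82 (51 and 163 UMIs) and -1.05. With 1 library per age, the difference between the cell sets was not tested for either gene. C4b also had opposite signs, at -2.37 and 0.45, the second inside 2-fold.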

How the results depend on the processing

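No paired analysis was possible because each age is 1 library and the results come from no test. With 10 CPM added, 48 of 6596 genes were higher and 64 lower with age, and 33 were higher than in venous-gated cells without Prox1. Counting every gene with a UMI in both sets gave 492 higher and 733 lower of 13060 with age. It gave 88 and 370 against venous-gated cells without Prox1, 233 and 534 against Prox1-rich cells, and 704 lower than in capillary-gated cells. The number of genes measured is not given for the set comparisons under these alternatives, so their counts are not shares. With all aged cells kept, 29 of 6852 genes were higher and 30 lower with age. Another 252 were lower than in Prox1-rich cells and 359 lower than in capillary-gated cells, and the aged share of venous-gated cells with Prox1 was 75.8%. In that setting B2m stood at -0.92, H2-K1 at -0.71, Fos at -0.84 and Egr1 at -0.80, all inside 2-fold. Requiring all 3 venous genes gave 24 higher and 21 lower than venous-gated cells without Prox1 and an adult share of 80.3%. At 2 or more Prox1 UMIs the shares were 64.6% and 78.0%, and with no upper limit the adult share was 78.1%. In female cells alone, 67 of 4266 genes were lower with age, and the list medians were -0.995 for class I and -1.21 for the GTPases. In male cells alone the immediate early median was -1.04.

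Alternatives added after seeing the data were comparison cells without Gja5 and Sema3g (30 higher, 29 lower), Prox1-rich cells outside the venous gate (299 higher), adult values from the copies, and Prox1 venous-gated cells without Acta2, Myh11 and Col1a1. Of the single-gene values under all alternatives, 713 stayed on their side of 2-fold, 22 moved inside 2-fold and 6 moved past it. None that was past 2-fold in either setting changed direction. Changes of sign inside 2-fold were not counted. Depth limits the genes with few UMIs, and only 33 aged venous-gated cells lacked Prox1, 20 of them without Gja5 and Sema3g.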
